A study of Mus musculus with 12 samples.

Results

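Histone H3.3 is the form of histone H3 that cells place into chromatin outside DNA replication. In the mouse it is made from H3f3a and H3f3b, which encode the same protein. This account covers 10 genes in newborn male germ cells: those parent genes, 3 intronless copies of H3f3a (H3f3c, Gm10257 and H3f3a-ps2), and 5 genes for the chaperones that deliver H3.3 (Hira, Ubn1, Cabin1, Atrx and Daxx). They were listed by symbol, and all 10 were found among the 35666 genes of the deposited table. The list was drawn up with results of the same comparison known: the 3 copies, which resemble H3f3a, were all among the genes called lower in the knockout. Their differences are thus not independent of the choice. The other members were listed by function. The differences between genotypes in these 10 genes are therefore given as descriptions, with standard errors and no p-values.

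The study compared gonocytes, the male germ cells of the newborn testis, between mice heterozygous for a knockout of Morc1 (Morc1 (+/-), het) and homozygous knockout mice (Morc1 (-/-), KO). Morc1 encodes an ATPase of germ cells. All cells came from the testis of Mvh-Venus transgenic mice, in which a fluorescent reporter marks germ cells. RNA-seq libraries were made at postnatal day 0 (P0) with the SMART-seq v4 Ultra Low input and TruSeq mRNA kits, 3 per genotype. The labels do not name the kind of knockout allele, and the controls also carry a mutant allele. Nor do they name the number of animals behind a library, so spread between libraries may be technical in part. Libraries of P3 were not analysed here.

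H3.3 reaches chromatin along separate routes. The HIRA complex (HIRA, UBN1 and CABIN1) deposits it at active genes and at gaps in nucleosomes, whereas ATRX, a chromatin remodeler, works with the chaperone DAXX at repeats, telomeres and silenced retrotransposons. Retrotransposon silencing is also the process in which MORC1 is known to act in male germ cells. The intronless copies are retrocopies, made when a spliced messenger RNA was copied back into the genome.

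Because the copies differ from H3f3a at so few bases, their sequences are shown first. Each line gives positions 112 to 411 of the coding sequence or of the annotated copy of it, up to and including the stop codon, on the sense strand (GENCODE M21, GRCm38). This stretch holds 8 of the 11 positions at which at least 1 of the 3 copies differs from H3f3a, and all 5 of those of H3f3a-ps2. Capitals in a copy mark bases that differ from H3f3a, and capitals in H3f3a mark these 8 positions.
H3f3a: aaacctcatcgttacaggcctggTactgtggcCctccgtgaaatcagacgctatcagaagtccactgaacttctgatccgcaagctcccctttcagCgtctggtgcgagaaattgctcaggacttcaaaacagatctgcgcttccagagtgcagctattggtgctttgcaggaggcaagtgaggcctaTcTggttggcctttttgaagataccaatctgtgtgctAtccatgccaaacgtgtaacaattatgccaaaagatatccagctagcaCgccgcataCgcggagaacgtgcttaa
H3f3c: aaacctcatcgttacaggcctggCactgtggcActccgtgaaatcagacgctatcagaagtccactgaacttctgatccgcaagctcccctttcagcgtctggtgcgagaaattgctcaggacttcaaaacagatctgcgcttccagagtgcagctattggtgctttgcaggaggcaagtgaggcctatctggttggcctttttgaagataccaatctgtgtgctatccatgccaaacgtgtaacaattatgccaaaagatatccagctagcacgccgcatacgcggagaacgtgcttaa
Gm10257: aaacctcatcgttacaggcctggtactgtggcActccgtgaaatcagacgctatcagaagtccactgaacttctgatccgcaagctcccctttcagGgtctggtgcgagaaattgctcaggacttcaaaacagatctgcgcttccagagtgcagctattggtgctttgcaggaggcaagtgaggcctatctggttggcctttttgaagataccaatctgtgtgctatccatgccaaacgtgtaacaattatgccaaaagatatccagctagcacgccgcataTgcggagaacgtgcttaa
H3f3a-ps2: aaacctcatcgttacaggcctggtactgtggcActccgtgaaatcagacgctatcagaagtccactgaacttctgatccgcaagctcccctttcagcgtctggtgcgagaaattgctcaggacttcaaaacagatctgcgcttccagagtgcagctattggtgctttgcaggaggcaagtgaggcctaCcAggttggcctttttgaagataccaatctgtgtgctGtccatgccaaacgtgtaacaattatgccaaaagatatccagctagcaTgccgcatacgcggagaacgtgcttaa

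The coding sequence of H3f3a lies in 3 exons on the minus strand of chromosome 1 (180803077 to 180811926) and is 411 bases long. H3f3c (ENSMUSG00000082029) is on the minus strand of chromosome 2 from 119665626 to 119666036. Gm10257 (ENSMUSG00000114759) is on the minus strand of chromosome 13 from 100946405 to 100946815, and H3f3a-ps2 (ENSMUSG00000081176) on that of chromosome 16 from 91114189 to 91114599. All 3 are processed pseudogenes in GENCODE, whereas the RefSeq table for GRCm38.p6 gives H3f3c as protein-coding. Counted from the first base of the start codon, with the H3f3a base first, H3f3c differed by G8T, G76A, T135C and C144A. Gm10257 differed by C89T, C144A, C208G and C394T. H3f3a-ps2 differed by C144A, T300C, T302A, A337G and C385T. The reading frame was open to the stop codon in each. C144A was thus common to the 3 copies, and H3f3b does not carry it.

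H3f3a and H3f3b are far easier to tell apart, since their coding sequences differed at 95 of 411 positions (76.9% identity). A search of the GENCODE transcripts with the H3f3a coding sequence found 13 genes, on 8 chromosomes, that matched at least 400 of its bases at 95% identity or more. All 13 were processed pseudogenes and are listed in the gene table. Of them, 12 carried C144A, the exception being Gm6421. Among the 312 windows of 100 bases in the H3f3a coding sequence, 212 also occurred in a copy, and with 50 bases it was 336 of 362. Read length, strand handling and the treatment of reads with several matches are not given in the sources used here, so counts of H3f3a and of its copies are uncertain with respect to each other.

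**Figure D1:**
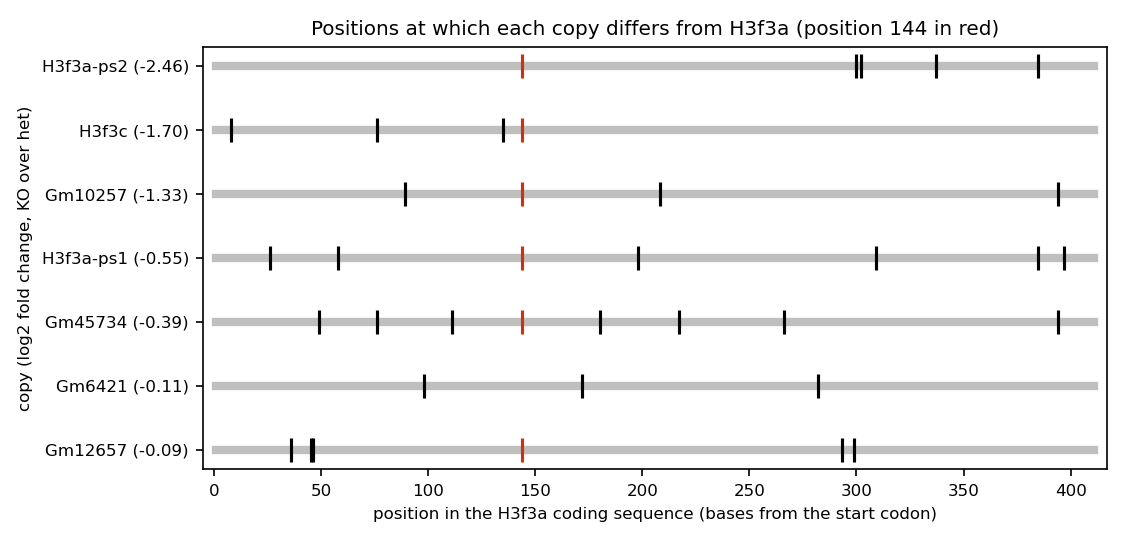
Positions (bases from the start codon of H3f3a) at which the 7 copies with at least 98% identity differ from H3f3a, ordered by their log2 fold change between genotypes (in brackets). Each tick is 1 differing base, and red ticks mark position 144, which is changed in each copy but Gm6421. The differences of H3f3c lie in the first part of the sequence and all but 1 of those of H3f3a-ps2 in the last part.

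Libraries held 28363683 to 32816861 gene reads. Expression of Morc1, the targeted gene, was 7248, 7485 and 4126 normalized counts in het and 1360, 1343 and 1794 in KO (in the order of replicates 1 to 3, as throughout). The KO mean was 23.8% of the het mean, with a log2 fold change of -2.03 (SE 0.27, adjusted p 0.0109 by limma). Germ cell identity was checked with 8 germ cell genes, among them the RNA helicase gene Ddx4 and Dazl. Their summed level was 120687 to 166466 normalized counts in het and 130392 to 161236 in KO, with 0 of 8 called by limma. All 8 Sertoli cell markers had negative log2 fold changes (median -0.75), and in 4 of them the KO libraries all lay below the het libraries. None was called by limma, 4 had an unadjusted p under 0.05, and their summed level was 17747 to 36683 in het and 12745 to 18151 in KO. Over all tested genes, 5.57% had every KO library below every het library, and 6.86% had an unadjusted p under 0.05 by limma. The 5 Leydig cell markers summed to 24921 in het replicate 3, against 510 to 1079 in the other libraries. None of these markers was at 0 in every library, and their part in the results was not tested.

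The parent gene H3f3a (ENSMUSG00000060743) stood at 14079, 15846 and 15665 normalized counts in het and in KO at 23285, 20140 and 18941. Every KO library was above every het library, with means of 15197 ± 972 and 20789 ± 2243 (SD, n = 3), a ratio of 1.37. The log2 fold change was 0.45 (SE 0.18). Of all 26005 tested genes, 7.17% had every KO library above every het library. In bulk RNA, a change in the number of cells of a type and a change in RNA per cell cannot be told apart.

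The copies lay on the other side. H3f3c had 2263, 2684 and 2769 normalized counts in het and 778, 845 and 752 in KO. The genotypes were far apart, with means of 2572 ± 271 in het and 791.5 ± 48.3 in KO (SD, n = 3), or 30.8% (log2 fold change -1.70, SE 0.21). Gm10257 had 1078, 1122 and 991 in het and 464, 425 and 377 in KO. Its means were 1064 ± 66.8 in het and 422 ± 43.5 in KO (SD, n = 3), or 39.7% (log2 fold change -1.33, SE 0.23). H3f3a-ps2 had 266, 344 and 277 in het and 53.4, 65.1 and 42.1 in KO. It was the member with the largest difference, at 18.1% of the het mean (log2 fold change -2.46, SE 0.32). In all 3 copies the KO libraries lay below all het libraries without overlap, which 5.57% of tested genes and 6.69% of 2227 tested processed pseudogenes showed.

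**Figure D2:**
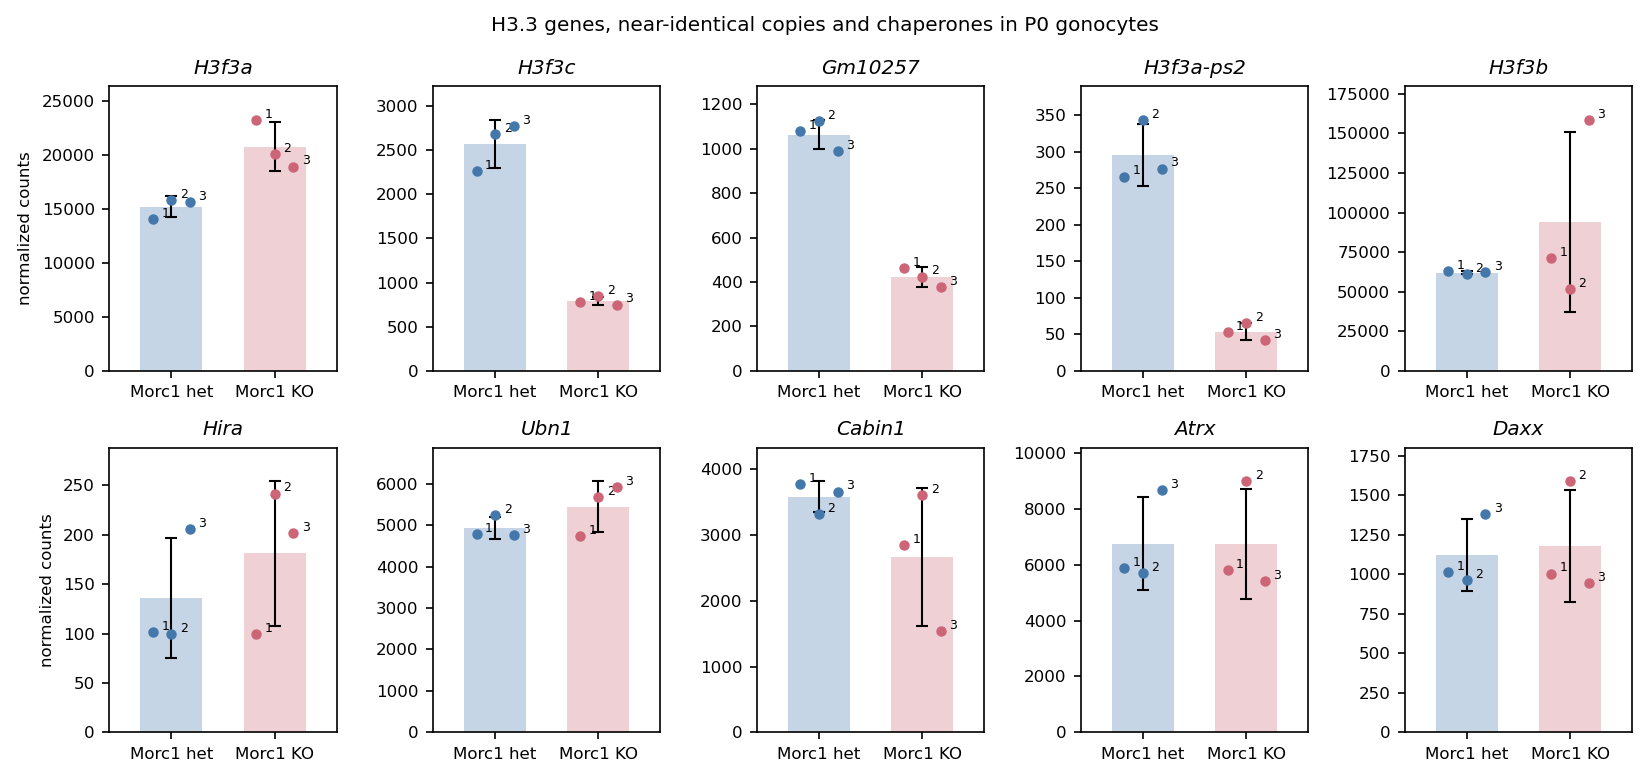
Normalized counts of the 10 genes in 3 Morc1 het and 3 Morc1 KO libraries. Points are libraries (numbered by replicate), bars are means and error bars are SDs, and each axis starts at 0. H3f3a is higher and its 3 copies are lower in every KO library, whereas the genotypes overlap in H3f3b and the 5 chaperone genes.

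All 10 members passed the filter of a mean of at least 10. By limma over all genes, 3 of 10 were called lower at an adjusted p under 0.05, namely the 3 copies, and 0 higher. The shares over all tested genes were 0.0423% (11 genes) lower and 0.431% (112 genes) higher. The list was chosen with this comparison known, and nothing is read from its count. By unadjusted p, 2.44% of all genes were lower and 4.42% higher. The median log2 fold change was 0.02 over the members and -0.02 over all tested genes. The calls rested on few libraries: without KO replicate 1 or KO replicate 3, 0 members were called, and without het replicate 1 or 2 only H3f3c was. Over 17 alternatives, the log2 fold changes stayed between -1.78 and -1.64 for H3f3c, -1.41 and -1.26 for Gm10257, and -2.65 and -2.27 for H3f3a-ps2. These alternatives reuse the libraries with which the copies were picked, so their steadiness is no independent support for the differences.

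A ratio within a library needs no scaling between libraries. Per 100 H3f3a reads, H3f3c had 16.1, 16.9 and 17.7 reads in het and 3.34, 4.20 and 3.97 in KO. Gm10257 had 7.65, 7.08 and 6.33 in het and 1.99, 2.11 and 1.99 in KO. H3f3a-ps2 had 1.89, 2.17 and 1.77 in het, and 0.229, 0.323 and 0.222 in KO. Together these copies stood at 25.9 ± 0.299 per 100 H3f3a reads in het, against 6.12 ± 0.535 in the KO libraries (SD, n = 3). Within a genotype the combined ratio was nearly constant, at 25.6 to 26.2 in het and 5.56 to 6.63 in KO. In normalized counts the 3 copies together had 3931 ± 287 in het and 1267 ± 85.6 in KO, a difference of -2664. H3f3a and the 3 copies together still had more in KO, at 22056 ± 2290 against 19128 ± 1258 (SD, n = 3). The difference in H3f3a was therefore larger than that in the copies combined.

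The remaining copies gave a comparison that was chosen by sequence identity alone, although after the values of the members were known. With the 3 members, 7 copies had at least 98% identity to the H3f3a coding sequence. Gm6421 had the highest identity to H3f3a, 99.3% over 409 aligned bases, but it also lacks 2 bases that this share leaves out. It had 408, 397 and 454 normalized counts in het and 442, 368 and 361 in KO. Gm12657 had 356, 358 and 343 in het and 449, 269 and 299 in KO. Both overlapped between genotypes (log2 fold changes -0.11, SE 0.24, and -0.09, SE 0.28). H3f3a-ps1 was lower in every KO library, at 166, 192 and 160 against 114, 114 and 123 (log2 fold change -0.55, SE 0.29, limma adjusted p 0.806). Gm45734 was the least abundant of the 7, at 54.4, 64.7 and 54.6 against 57.4, 38.2 and 38.2. By limma 0 of these 4 copies were called, and 0 had an unadjusted p under 0.05, and edgeR and DESeq2 also called 0. Whether the members differ from these copies was not tested, because the members were chosen on that difference.

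**Figure D3:**
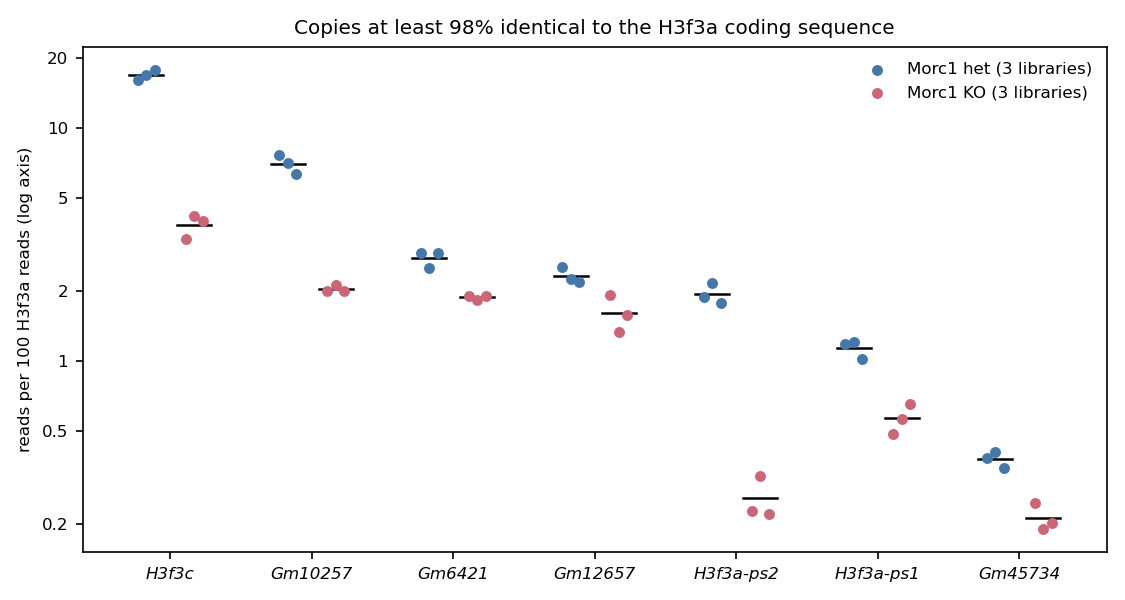
Reads of each copy per 100 H3f3a reads in the same library (log axis), for the 7 copies with at least 98% identity. Points are 3 het and 3 KO libraries and black lines are means. H3f3c has a mean of 16.9 in het and 3.83 in KO, and H3f3a-ps2 of 1.94 and 0.258. Each of the other copies is also lower in KO relative to H3f3a, which is itself higher in KO. In normalized counts, Gm6421, Gm12657 and Gm45734 overlapped between genotypes.

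Sequence features other than identity were set beside these values. Windows of 100 bases that occur in no other GENCODE gene made up 31.1% of H3f3a-ps2, 43.3% of H3f3c, 48.7% of Gm12657 and 60.3% of Gm10257. In H3f3a-ps1, Gm45734 and Gm6421 the share was 83.6%, 85.3% and 87.1%. The 3 members were thus among the 4 copies with the fewest windows of their own, and the other was Gm12657, whose libraries overlapped between genotypes. Of these copies, only Gm6421 lacks C144A, and its libraries overlapped between genotypes. Besides the members, it is carried by H3f3a-ps1, which was lower in every KO library, and by Gm12657 and Gm45734, whose libraries overlapped. Whether any of these features bears on the differences was not tested.

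The genes around the 3 copies were taken by position, after the values of the copies were seen. On chromosome 2 the nearest tested genes were Ndufaf1, at 2799 bases, with 2210, 1936 and 2135 normalized counts in het and 1911, 1474 and 2547 in KO, and Rtf1 on the other side (log2 fold change -0.06, SE 0.35). H3f3a-ps2 lies between 4932438H23Rik, at 19067 bases (log2 fold change 0.00, SE 0.54), and Gm49611, at 18522 bases (-0.12, SE 0.40). Gm10257 lies within the bounds of the lincRNA Gm29502, on the opposite strand, which had 7.63, 26.1 and 22.4 normalized counts in het and 24.7, 21.7 and 19.6 in KO. All of these neighbours overlapped between genotypes and none was called by limma.

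H3f3b (ENSMUSG00000016559, minus strand of chromosome 11 from 116021912 to 116027962) was the most abundant member and ranked between 2 and 11 among all listed genes in each library. It had 63021, 61076 and 62365 normalized counts in het and 71193, 51962 and 158681 in KO. The het libraries were nearly equal, whereas KO replicate 3 was far above the other KO libraries. The log2 fold change of 0.43 (SE 0.34) was -0.03 without that library. Per kb of annotated exon, H3f3b was 3.04-fold to 9.86-fold above H3f3a across the 6 libraries, with a mean log2 ratio of 2.26 ± 0.59 (SD, n = 6). The lowest ratio was in KO replicate 2 and the highest in KO replicate 3.

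H3f3b also has a close copy in the table, Gm37486 on chromosome 1 (96.8% identity). It had 1008, 917 and 1026 normalized counts in het and 1139, 869 and 2521 in KO, so KO replicate 3 again stood apart. Per 100 H3f3b reads it had 1.5 to 1.67 reads in every library, and the genotypes overlapped.

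The HIRA complex genes overlapped between genotypes. Hira (ENSMUSG00000022702), the histone-binding subunit that names the complex, had 102, 99.5 and 206 normalized counts in het and 99.9, 242 and 202 in KO (log2 fold change 0.41, SE 0.43). It was the least abundant chaperone gene, and its high and low libraries occurred in both genotypes. Ubn1 (ENSMUSG00000039473), the subunit that recognises H3.3, was steadier, with 4789, 5236 and 4755 in het and 4741, 5666 and 5914 in KO (log2 fold change 0.14, SE 0.19). Cabin1 (ENSMUSG00000020196), the large subunit of the complex, had 3771, 3323 and 3660 in het and 2848, 3606 and 1544 in KO. Its lowest value was in KO replicate 3, the library with the most H3f3b. Its log2 fold change of -0.51 (SE 0.30) was -0.16 without that library.

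Atrx and Daxx had nearly the same mean in both genotypes. Atrx (ENSMUSG00000031229, on chromosome X) had 5877, 5690 and 8658 normalized counts in het and 5790, 8984 and 5397 in KO (log2 fold change -0.01, SE 0.26). Daxx (ENSMUSG00000002307) had 1014, 966 and 1383 in het and 1005, 1590 and 946 in KO (log2 fold change 0.05, SE 0.27). Both were highest in het replicate 3 and KO replicate 2, and the other 4 libraries lay close together. Hira was also high in these libraries, together with KO replicate 3. These differences between libraries of a genotype were larger than the difference between genotype means.

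On a per-length scale, the order of the median levels over 6 libraries was H3f3b (21066 normalized counts per kb of annotated exon), H3f3a (4964), H3f3c (3781), Gm10257 (1770), Ubn1 (606), H3f3a-ps2 (403), Daxx (320), Cabin1 (285), Atrx (268) and Hira (24.4). The annotated length of the copies covers only the coding part (411 bases), whereas that of H3f3a merges all its annotated exons (3504 bases). The order of H3f3a and its copies thus depends on the lengths used. In normalized counts, H3f3c was below H3f3a in every library. Per kb of annotated exon, H3f3c was above H3f3a in each het library (5506 to 6737 against 4018 to 4522). It was below H3f3a in each KO library (1829 to 2056 against 5406 to 6645). Between neighbours in this order, H3f3b and H3f3a, Gm10257 and Ubn1, and Atrx and Hira did not overlap in their ranges over the 6 libraries. H3f3c and Gm10257, and Daxx and Cabin1, overlapped in their ranges, but the first was the higher within each of the 6 libraries. Of the remaining 4 pairs of neighbours, H3f3a and H3f3c changed order with genotype on this per-length scale only, as given above. H3f3a-ps2 was likewise above Ubn1 and Daxx in each het library (647 to 837 against 575 to 633 and 307 to 439). It was below both in each KO library (103 to 158 against 573 to 715 and 300 to 505). Cabin1 was above Atrx in 2 of 6 libraries, het replicates 1 and 2.

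Other genes that handle H3.3 or act with its chaperones were taken from a list of 26, of which 25 were measured. By limma 0 of 25 were called in either direction (0.473% of all tested genes were), and 0 had an unadjusted p under 0.05 (6.86% of all tested genes). Both edgeR and DESeq2 on recovered reads also called 0. The median log2 fold change was 0.01, with single values from -0.46 to 0.63. Asf1b, a chaperone gene that hands H3 to other chaperones in dividing cells, had the highest, with 3637, 5159 and 2664 normalized counts in het and 4560, 4654 and 8742 in KO (0.63, SE 0.32, limma adjusted p 0.795). Its relative Asf1a stood at -0.28 (SE 0.26), and Ubn2, the relative of Ubn1, at 0.32 (SE 0.28). Nasp, which holds the soluble pool of H3, stood at -0.02 (SE 0.28). Trim28 and Setdb1, which bring H3K9 methylation to retrotransposons, stood at 0.01 (SE 0.26) and 0.19 (SE 0.22).

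Genes for other replication-independent histone variants were likewise uncalled, with 0 of 9 measured passing in limma, edgeR and DESeq2. In limma 1 of 9 had an unadjusted p under 0.05 (6.86% of all tested genes did). This was H1f0, a linker histone gene of slowly dividing cells, with 1851, 1882 and 3413 normalized counts in het and 1513, 1373 and 913 in KO. The genotypes did not overlap (log2 fold change -0.88, SE 0.30, limma unadjusted p 0.0148, adjusted p 0.493). Of all tested genes, 5.57% had every KO library below every het library. The median over the 9 genes was -0.12.

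**Figure D4:**
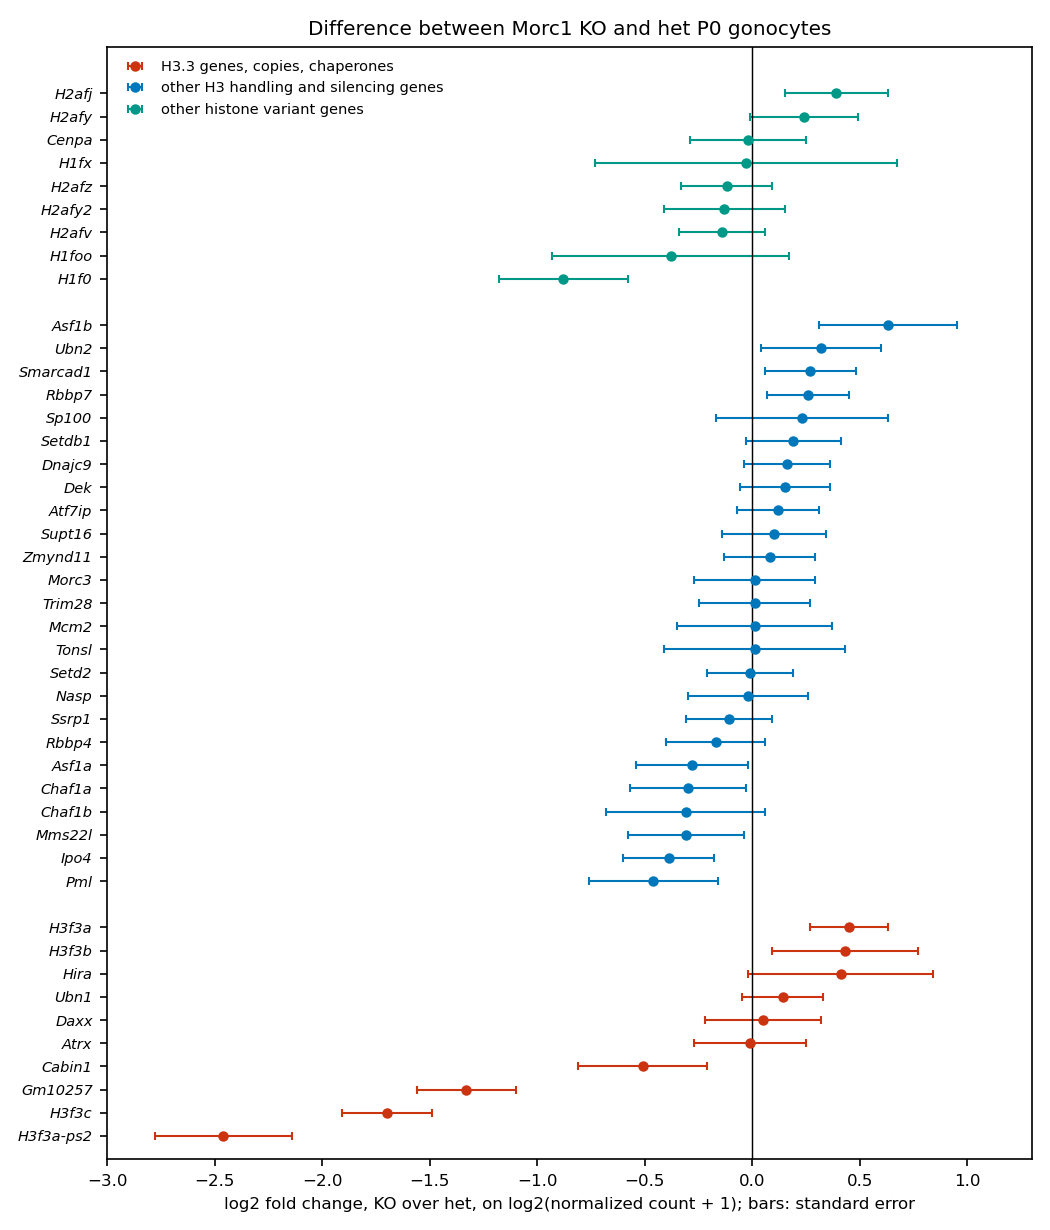
Log2 fold change of KO over het on the log2(normalized count + 1) scale, with standard errors as bars, for the 10 members (red), 25 other genes that handle H3 or silence repeats (blue) and 9 other histone variant genes (green). The copies H3f3a-ps2, H3f3c and Gm10257 lie at -2.46, -1.70 and -1.33, and the genes of the other lists lie between -0.88 and 0.63.

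Transposable element (TE) copies in and around the members were examined in the second deposited table. It lists 99 copies within 10 kb of a member, of which 66 overlap the gene itself and 20 had a mean of at least 10 normalized counts. By limma 0 of these 20 were called, against 16.3% of all 49781 tested copies (15.6% higher and 0.735% lower). Atrx, with 26 listed copies, had 3 tested, and Cabin1, with 25, had 6. The only tested copy at H3f3a, singled out after its values were seen, was low, with 16.9, 23.6 and 17.3 normalized counts in het and 11.4, 10.1 and 9.41 in KO (log2 fold change -0.83, SE 0.58). The only one near H3f3c, singled out likewise, had 19.0, 7.85 and 28.8 in het and 5.72, 7.74 and 9.41 in KO. Its genotypes overlapped (log2 fold change -1.04, SE 0.71). Over the 20 tested copies, log2 fold changes ran from -1.48 to 0.84, both at Cabin1. TE values were scaled separately from gene values, so these log2 fold changes cannot be set directly beside those of genes. No copy was tested near H3f3a-ps2, H3f3b or Gm10257.

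Likeness was measured after subtracting each genotype's mean, so that the difference between genotypes played no part. Over the 6 libraries and 15517 genes with a mean of at least 100, the genes most like H3f3a-ps2 were Sin3a, Gtf3c2 and Chn2 (Pearson r 0.992, 0.991 and 0.991). Those most like H3f3a were Gm30373, Epha10 and Acsl3 (0.995, 0.994 and 0.994). With 6 libraries and the genotype means removed, few free values remain in each profile. The highest r among 15517 genes can therefore come this close to 1 without any relation between the genes. The named genes are a description only, and no link to the members is read from them.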

How the data were processed

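RNA-seq libraries of P0 gonocytes (3 het, 3 KO) were used, with groups and replicate numbers from the sample titles. The deposited gene values are a signal: gene read counts scaled by the authors with a DESeq2 size factor for each library, as the table's name has it. The deposited TE values are also a scaled signal, with a factor of their own for each library. Of the gene and of the TE values, 100.0% were whole multiples of 1 step per library, within 0.01, which gave recovered reads. This step was 0.954 to 0.975 in het and 0.980 to 1.03 in KO for genes. For TE copies it was 0.958 to 1.12 in het and 0.774 to 0.954 in KO. Log2 fold changes of genes and TE copies are thus on different scales. The submitters' processing notes list cutadapt 1.18, HISAT2 2.1.0, featureCounts 1.5.2 and DESeq2 1.26.0, with the builds mm10 and GRCm38. Strand and multi-match handling are not given in the sources used here.

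Symbols, positions and sequences came from GENCODE M21 (35560 of 35666 genes matched), and copies were found with blastn 2.17.0. The 26005 genes whose mean reached 10 entered limma 3.58.1 under R 4.3.3 (trend, two-sided), fitted on log2(normalized count + 1), which understates changes of low genes, with Benjamini-Hochberg adjustment over all genes. TE copies were tested likewise. Alternatives were edgeR 4.0.16 and DESeq2 1.42.0 on recovered reads, other pseudocounts, filters and scalings, a replicate block and leaving out libraries. Members and lists were chosen with earlier results of these data known. Named were all members, Morc1, list genes with an unadjusted p under 0.05, 6 list genes whatever their values, and the 3 genes most like H3f3a and H3f3a-ps2. Other copies and neighbours were chosen by identity or position after values were seen. Hjurp and H2afx were not analysed here.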

Additional observations from a re-analysis of the deposited data

How the results depend on the processing

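The number of genes higher in KO (112) became 70 with a pseudocount of 0.1, 177 with a pseudocount of 10, 400 with DESeq2 and 64 with the replicate block in limma. Leaving out single libraries gave 17 to 105, and leaving out het replicate 3 and KO replicate 2 together, chosen after seeing the data, gave 72. The number of lower genes (11) became 5 with a pseudocount of 0.1, 3 in limma without trend, 65 with DESeq2 and 5 with the replicate block, and 1 to 7 without single libraries. The number of members called lower (3) was 0 to 2 without single libraries, and 2 with the replicate block, with a pseudocount of 0.1 and in limma without trend. The causes were not tested. Same-numbered het and KO libraries correlated at 0.138, -0.163 and -0.0438 in their deviations from the genotype means. Not every library correlated best with its own number, and the main fit used no pairing. With 3 libraries per genotype, these values cannot tell whether same-numbered libraries share more than a number. Counted per 100 reads of H3f3a and its 3 copies, the KO minus het difference moved to -9.81 for H3f3c, -3.66 for Gm10257 and -1.30 for H3f3a-ps2, from -13.1, -4.99 and -1.68, since the denominator then holds the copies. Both lists of other genes had 0 calls in every alternative run for them. The sign of Daxx changed in 4 of 17 alternatives, that of Atrx in 3 and that of H3f3b in 1; the other 7 members kept theirs. Morc1 lost its limma call without trend (adjusted p 0.089) and when het replicate 1 (0.0519), KO replicate 1 (0.099) or KO replicate 3 (0.0623) was left out. With 3 libraries per genotype, differences as small as those of the chaperone genes lie within the spread between libraries.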
